A study of Mus musculus with 4 samples.

Results

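The response of wild-type mouse hearts to deoxycorticosterone with salt (DOC/salt) was measured here in genes that the array read with several probes. A gene was a member when 2 or more of its probes were brighter than the 99th percentile of odorant, vomeronasal and taste receptor probes on both wild-type arrays, and its response was the median log2 difference over those probes. Of 16593 genes with a named probe, 5556 had at least 1 such probe and 1086 were members, read by 2467 probes. Of the members, 832 had 2 detected probes, 215 had 3, 37 had 4 and 2 had 5. The several probes were required because single probes were lost on the array of the vehicle group, as described below. Members are not replicates: the probes of a gene read the same 2 RNA pools.

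The mice were on a C57Bl6 background, were 8 to 9 weeks old, and had lost 1 kidney before treatment. The wild-type (WT) groups carried the floxed mineralocorticoid receptor allele (MR flox/flox) without Cre, and received vehicle or DOC/salt for 8 days. The CM-MRKO groups carried the same floxed allele with MLC2v Cre, driven from the gene of the ventricular myosin light chain and so acting in ventricular cardiomyocytes, and received the same 2 treatments. RNA from 8 whole hearts was pooled in equal amounts for each group, and each pool was read on 1 array. There was therefore no replicate on either side, and no p-value is given. A difference between pools can come from any of the pooled animals, and in whole tissue fewer cells of a type and less RNA per cell cannot be told apart.

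Deoxycorticosterone is the precursor of aldosterone and activates the mineralocorticoid receptor, a nuclear receptor that controls sodium transport genes in the kidney. In the heart the receptor is present in cardiomyocytes, fibroblasts, endothelial cells and macrophages. With a salt load and reduced kidney mass, deoxycorticosterone is a standard way to raise blood pressure in rodents and to bring on inflammation and then fibrosis of the heart.

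The 4 arrays differed before normalization. The median deposited intensity of the 2467 member probes was 225.9 on the WT vehicle array and 330.5 on the WT DOC/salt array, and 332.2 and 351.7 on the corresponding CM-MRKO arrays. The WT vehicle array also lost single probes: 634 named probes were above the receptor limit on every array but that one, against 81 for WT DOC/salt and 60 and 18 for the CM-MRKO arrays (vehicle first, here and wherever a pair of arrays is given). Among the 4777 genes with 2 or more named probes, 352 had such a lost probe on WT vehicle, and 304 of them did not qualify as members. Cardiomyocyte markers were present as the tissue label requires, with 9 of 10 named markers detected and a summed normalized intensity of 86513 in WT vehicle and 88324 in WT DOC/salt. Ryr2, the cardiac ryanodine receptor, was the marker below the limit. At the edge of the rule, Suclg2 was the member with the least margin, its second probe reading 118.1 and 113.7 on the WT vehicle and WT DOC/salt arrays. Sema6b, with a second probe at 112.1 and 113.5, fell just outside.

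After normalization 34 members (3.13%) were higher and 8 (0.737%) lower by at least 1.5-fold in WT DOC/salt than in WT vehicle. All other members lay inside 1.5-fold. The member medians had an SD of 0.29 on the log2 scale around a median of -0.06, and ranged from -0.68 to 2.51. When every detected probe of a gene had to pass 1.5-fold in the same direction, 13 genes (1.20%) were higher and 2 (0.184%) lower. These 13 were Dcn, Tmx4, Pigp, Cdv3, Tfam, Capn2, Napsa, Pik3r1, Homer1, Rps3, Usp18, B2m and Nudc, and the 2 lower genes were Nsun5 and Smim41. The share past 1.5-fold was larger among the 4470 genes with a single detected probe, at 6.15% higher and 4.07% lower. By the brightest probe alone, 4.97% of members were higher and 1.84% lower, against 5.92% and 3.64% of the 5556 genes with any detected probe. The balance of higher and lower calls depended on scaling. It was 40 to 3 with loess, 25 to 17 with scaling to the median member probe, 17 to 0 without background correction, and 34 to 0 on the deposited values centred on their median. Genes with every probe past 1.5-fold numbered 6 higher and 6 lower with scaling to the median member probe.

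**Figure D1:**
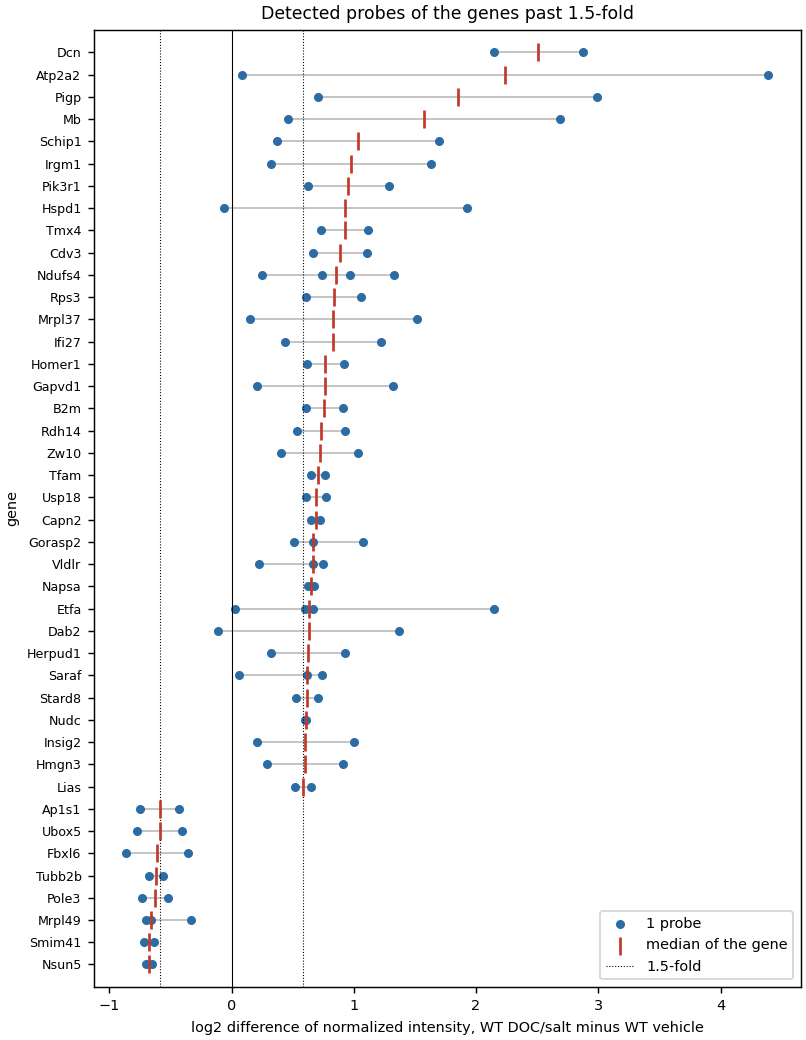
Log2 difference of normalized intensity between WT DOC/salt and WT vehicle (horizontal axis) for each detected probe (blue points) of the 42 genes whose median (red tick) passed 1.5-fold (dotted lines). The probes of Atp2a2 lie at 0.09 and 4.39, whereas those of Nudc lie at 0.60 and 0.61.

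For 32 of the 34 higher genes the WT vehicle array was the lowest of the 4, and for all 8 lower genes it was the highest of the 4. The WT DOC/salt array was the highest of the 4 for 24 of the 34 higher genes and the lowest for 7 of the 8 lower genes. A higher call already puts WT vehicle below WT DOC/salt, and a lower call puts it above. These counts are therefore partly set by the calls. Over all 1086 members the WT vehicle array was the lowest in 24.1% and the highest in 47.2%, and WT DOC/salt was the lowest in 25.6% and the highest in 22.1%. WT vehicle lay at least 1.5-fold below each of the other 3 arrays in 13 members. All 13 are among the 34 higher genes by definition, since WT DOC/salt is 1 of those 3 arrays. The WT DOC/salt array lay at least 1.5-fold above each of the others in 1 member by the median, Usp18. Its lowest probe fell short of 1.5-fold, at 0.51 against CM-MRKO vehicle and 0.53 against CM-MRKO DOC/salt. The 2 higher genes in which WT vehicle was not the lowest array by the median were Usp18 and Napsa. With the CM-MRKO vehicle array in place of WT vehicle, on the same genes and probes, 3 members were higher (0.276%), namely Napsa, Usp18 and Oas1g, and 1 was lower (0.0921%), Acta2. CM-MRKO vehicle itself, set against WT vehicle, had 19 members higher (1.75%) and 3 lower (0.276%). That control also differs from WT DOC/salt in genotype, and it was chosen after the WT vehicle array had been seen to stand apart.

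**Figure D2:**
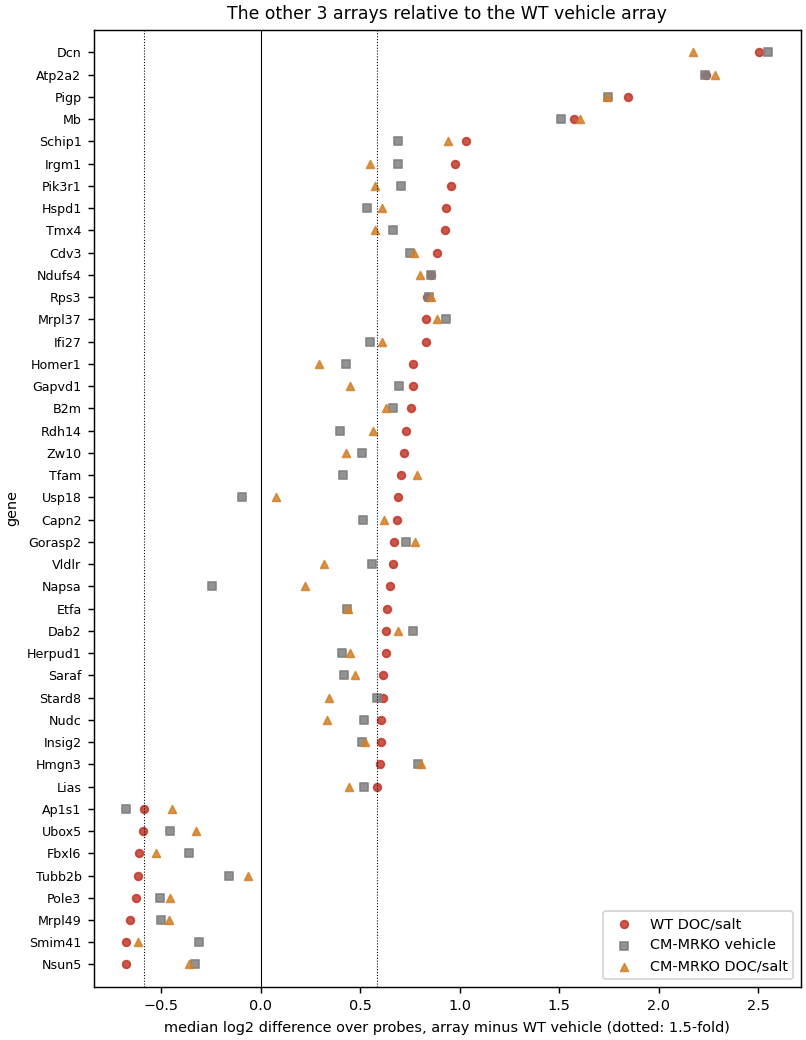
Median log2 difference over probes between each of the other 3 arrays and WT vehicle, for the 42 genes past 1.5-fold in WT hearts. For most genes the CM-MRKO vehicle (grey squares) and CM-MRKO DOC/salt (orange triangles) values lie near WT DOC/salt (red circles), while Usp18 has its CM-MRKO values at -0.10 and 0.08 and its WT DOC/salt value at 0.69.

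Interferon-inducible genes had the highest median of the 21 lists with 3 or more members. The list holds genes that interferons switch on through STAT and IRF transcription factors. Of 49 listed genes 6 were members, of which 3 were higher and 0 lower, with a median of 0.56. Over all 1086 members 3.13% were higher and 0.737% lower, and the median was -0.06. The list median was 0.28 with CM-MRKO vehicle as the control and 0.14 for probes at 200 or more. Earlier results on these data had already shown the list higher in this comparison, so the count is no separate evidence of direction.

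Usp18 encodes the protease that removes the ubiquitin-like protein ISG15 and restrains signalling from the type I interferon receptor. Its first probe read 203.2 and 417.5 on the WT arrays and 315.1 and 329.0 on the CM-MRKO arrays. Its second probe read 144.9 and 286.7 on the WT arrays and 171.4 and 215.9 on the CM-MRKO arrays. Both probes were highest on the WT DOC/salt array. After normalization the CM-MRKO arrays differed from WT vehicle by medians of -0.10 and 0.08, but the 2 probes were not alike. WT vehicle was the lowest array for the first probe, and CM-MRKO vehicle was the lowest for the second. The median difference was 0.69 on the log2 scale (1.62-fold), with probes at 0.61 and 0.78. The third Usp18 probe, below the limit on WT vehicle, went from 105.5 to 142.0. The median difference between WT DOC/salt and CM-MRKO DOC/salt was 0.62, and the response inside CM-MRKO hearts was 0.17.

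Irf9 encodes the DNA-binding subunit of the complex through which type I interferons act. Its probes read 177.7 and 149.0 in WT hearts on vehicle and 344.7 and 225.6 on DOC/salt, against 245.3 and 182.0 in CM-MRKO hearts on vehicle and 268.8 and 166.1 on DOC/salt. The WT DOC/salt array was the highest of the 4 for both probes. The median difference of 0.43 did not reach 1.5-fold, and neither did the second probe at 0.25.

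Irgm1 and Ifi27 were past 1.5-fold by the median only. Irgm1, an interferon-induced GTPase of defence against intracellular pathogens, had probes at 1.63 (334.0 to 1443) and 0.33 (129.8 to 192.8), and a median of 0.98. On the CM-MRKO arrays its first probe read 1077 and 974.5, so WT vehicle was the lowest array. Ifi27, an interferon-induced membrane protein, had probes at 0.43 and 1.22 and a median of 0.83, and the median was 0.28 with CM-MRKO vehicle as the control. The 2 Ifi27 probes name different transcript accessions, so they may not read the same RNA. Irf1 and Psmb10, a transcription factor and a subunit of the immunoproteasome, had medians of -0.02 and 0.04. Oas1g, an interferon-induced oligoadenylate synthetase gene that is on no list and was named after its values were seen, had probes at 0.37 and 0.34. Its first probe read 191.3 and 333.4 on the WT arrays and 209.8 and 287.6 on the CM-MRKO arrays. The Oas1 genes are closely related copies, so what its probes read is uncertain.

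Of the 4 antigen presentation members, 1 was higher, against 3.13% of all members. B2m, the invariant light chain of MHC class I, had a median of 0.76 (1.69-fold) with both probes past 1.5-fold. Its probes read 2161 and 2120 in WT hearts on vehicle and 5903 and 4727 on DOC/salt, against 4822 and 5426 in CM-MRKO hearts on vehicle and 5212 and 5242 on DOC/salt. WT vehicle was thus the only low array, and WT DOC/salt differed from CM-MRKO vehicle by 0.09 on the log2 scale. Psme1, an activator subunit of the proteasome, was at 0.23. H2-Ab1 and Cd74, which serve MHC class II, were both at 0.04, and the 4 probes of H2-Ab1 ranged from -0.40 to 0.52.

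The promoters of B2m and Irgm1 are shown because both genes are interferon targets past 1.5-fold and both hold the motif of 2 GAAA copies set 2 bases apart, the core of the interferon-stimulated response element that IRF proteins bind. Each run is the 250 bases before the gene start in RefSeq (GRCm38.p6), 5′ to 3′ on the gene's strand, with matches in capitals. B2m lies on the plus strand at chr2:122147437-122147686 and Irgm1 on the minus strand at chr11:48871421-48871670.
B2m: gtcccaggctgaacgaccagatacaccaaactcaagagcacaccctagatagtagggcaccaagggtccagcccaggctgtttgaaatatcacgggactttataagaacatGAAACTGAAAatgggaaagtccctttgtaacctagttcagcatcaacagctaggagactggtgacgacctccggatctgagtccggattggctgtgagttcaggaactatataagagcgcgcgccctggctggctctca
Irgm1: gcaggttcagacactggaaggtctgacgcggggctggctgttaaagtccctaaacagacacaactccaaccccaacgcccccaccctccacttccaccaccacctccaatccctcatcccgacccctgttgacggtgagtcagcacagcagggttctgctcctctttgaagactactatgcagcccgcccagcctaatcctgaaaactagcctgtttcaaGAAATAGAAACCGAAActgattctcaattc
The match in B2m runs from 139 to 130 bases before the start. Irgm1 has 2 overlapping matches, from 30 to 21 and from 24 to 15 bases before the start. Both strands were searched. The motif was found in 3 of the 32 called genes with a promoter entry (B2m, Homer1 and Irgm1), in 25 of 895 members with one (2.79%) and in 936 of 27025 genes (3.46%). Of the 4 interferon list members with a promoter entry, 1 held it, Irgm1. The other motifs searched were TTCNNNGAA, the core of STAT sites, in 2 of the 32 (Dab2 and Gorasp2) against 6.03% of members and 8.13% of all genes, and CACGTG, the E-box of the clock factors, in 4 of the 32 against 10.3% of members and 6.86% of all genes. The full corticosteroid receptor palindrome, AGAACA and TGTTCT set 3 bases apart, was in 0 of the 32 and in 3 genes of all. Usp18, Ifi27 and Dcn had no promoter printed.

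No marker of a leukocyte, platelet or red cell was a member, so their levels come from the brightest probe of each gene. Of the 8 neutrophil markers 3 were detected on a WT array, and their summed normalized intensity was 403.1 and 715.6 on the WT arrays and 993.2 and 1551 on the CM-MRKO arrays, so the CM-MRKO vehicle pool was above WT DOC/salt. For platelet markers 5 of 6 were detected, with sums of 303.0 and 793.2 on the WT arrays and 251.0 and 262.6 on the CM-MRKO arrays. Macrophage markers, 6 of 7 with a named probe, summed to 8230 and 7266 on the WT arrays and 6791 and 6660 on the CM-MRKO arrays. Of 5 lymphocyte markers 1 was detected, at 54.6 and 66.0 on the WT arrays and 58.4 and 53.1 on the CM-MRKO arrays. Neutrophil markers Camp, Csf3r, Ltf, Ngp and Retnlg, the platelet marker Pf4, the macrophage marker Adgre1 and the lymphocyte markers Cd3e, Cd3g, Cd79a and Ms4a1 were not detected. The part of these cells in the interferon and antigen presentation values was not tested.

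**Figure D3:**
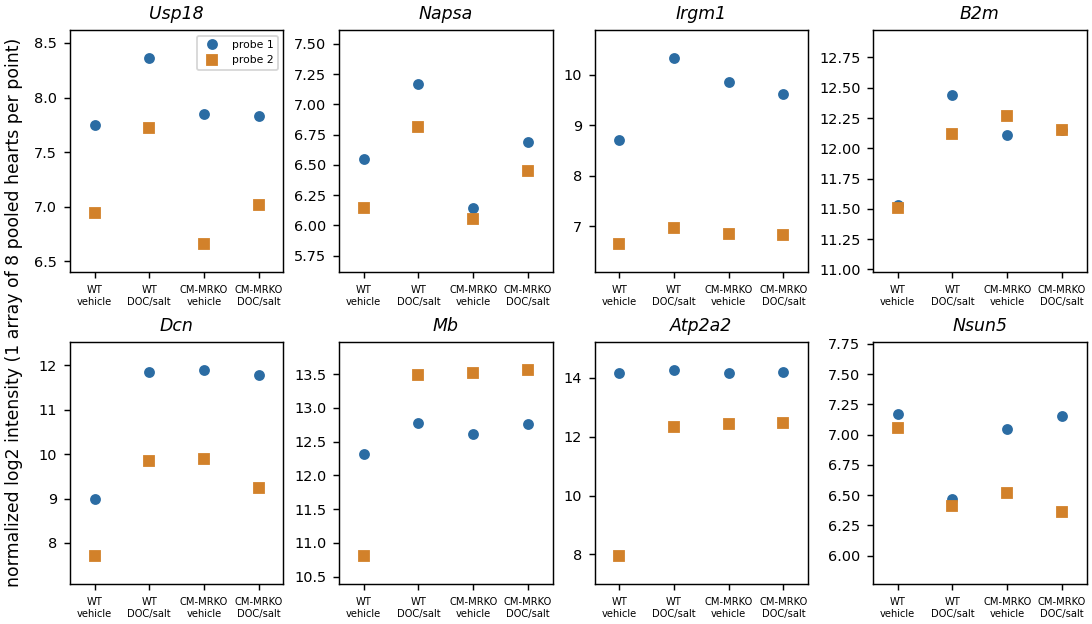
Normalized log2 intensity of each detected probe (probe 1 blue circles, probe 2 orange squares) on the 4 arrays for 8 genes, each point being 1 array of 8 pooled hearts. Usp18 and Napsa are highest on WT DOC/salt, whereas Dcn, Mb, B2m and the second probe of Atp2a2 are lowest on WT vehicle. The second probe of Dcn reads 9.84 on WT DOC/salt, 9.90 on CM-MRKO vehicle and 9.25 on CM-MRKO DOC/salt.

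Napsa, which encodes the aspartic protease napsin A, was the other higher gene in which WT vehicle was not the lowest array by the median, and it had every probe past 1.5-fold. Its probes read 125.9 and 112.8 in WT hearts on vehicle and 213.8 and 179.1 on DOC/salt, against 138.7 and 134.0 in CM-MRKO hearts on vehicle and 185.1 and 165.7 on DOC/salt. The WT DOC/salt array was the highest for both probes. After normalization the CM-MRKO vehicle array was the lowest, with a median difference from WT vehicle of -0.25. The median difference was 0.65 (1.57-fold) in WT hearts and 0.47 in CM-MRKO hearts. These probes were dim: the receptor limit was at 108.6 on the WT vehicle array and 113.5 on WT DOC/salt.

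Matrix genes divided into a single high value and 4 members below 0. Dcn encodes decorin, a small proteoglycan of fibroblasts that binds collagen. Its probes read 395.2 and 198.3 in WT hearts on vehicle and 3887 and 1047 on DOC/salt, against 4135 and 1098 in CM-MRKO hearts on vehicle and 4130 and 765.4 on DOC/salt. WT vehicle was far below the other 3 arrays for both probes. The difference in WT hearts was 2.51 (5.68-fold), and it was -0.05 with CM-MRKO vehicle as the control. The other 4 of the 5 matrix members were Sparc, a collagen-binding protein (-0.42), Ltbp4, which binds latent TGF-beta (-0.34), Timp1, an inhibitor of matrix proteases (-0.34), and the collagen VI chain gene Col6a1 (-0.32). None of the 4 reached 1.5-fold, and all of their detected probes were below 0. The list median was -0.34. On the deposited scale, with its shift of 0.43 over all members, the list median was 0.25. The fibrillar collagen genes Col1a1, Col1a2 and Col3a1 did not qualify as members.

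Fibroblast markers as a whole were detected in 7 of 9 cases, and their summed normalized intensity was 2774 and 5770 on the WT arrays and 5803 and 5550 on the CM-MRKO arrays. Dcn is itself one of these markers, and its brightest probe went from 8.98 to 11.85 in normalized log2 intensity on the WT arrays. On the linear scale that rise is at least as large as the whole rise of the sum. The sum is thus not separate from Dcn, and the other detected markers together did not rise. The part of fibroblast content in the matrix values was not tested. Acta2, smooth muscle actin, had 4 detected probes between -0.60 and -0.41 in WT hearts. Its brightest probe read 9421 and 9035 on the WT arrays and 14685 and 12096 on the CM-MRKO arrays. The other Acta2 probes rose in WT hearts on the deposited scale, where the median over the 4 probes went from 946.1 to 1062. After normalization the median difference was -0.46 in WT and -0.49 in CM-MRKO hearts, both short of 1.5-fold. Smooth muscle and pericyte markers, 4 of 6 detected, summed to 12517 in WT vehicle and 9291 in WT DOC/salt with Acta2 among them. The brightest Acta2 probe went from 13.54 to 13.08 in normalized log2 intensity, which covers the whole fall of that sum. Endothelial markers, 7 of 8 detected, summed to 3471 and 3595. Pecam1, an adhesion molecule of endothelial cells, was at -0.18.

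Atp2a2 and Mb passed 1.5-fold by the median but not by every probe. The calcium handling list had 1 of 3 members higher, Atp2a2, and a median of 0.05, against 3.13% higher over all members. Atp2a2 encodes SERCA2, the pump that returns calcium to the sarcoplasmic reticulum. Its bright probe read 15158 in WT vehicle and 19381 in WT DOC/salt, whereas its second probe went from 222.0 to 5402. The second probe read 6011 and 6466 on the CM-MRKO arrays, and the 2 differences were 0.09 and 4.39. Myoglobin (Mb), the oxygen store of muscle, had probes at 0.47 (3746 to 7322) and 2.69 (1295 to 11927). Its second probe read 12506 and 13578 on the CM-MRKO vehicle and DOC/salt arrays. Csrp3, the Z-disc LIM protein, had a median of 0.20 from probes at 0.20, -0.34 and 1.95, so the median set aside its single high probe. Actc1, cardiac actin, was at 0.03 with probes at -0.02 and 0.07.

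Among mitochondrial genes Tfam, which activates transcription of mitochondrial DNA, had both probes past 1.5-fold, at 0.76 and 0.65. They read 124.7 and 112.5 in WT hearts on vehicle and 225.3 and 175.9 on DOC/salt, against 197.1 and 161.1 in CM-MRKO hearts on vehicle and 229.0 and 220.5 on DOC/salt. WT vehicle was the lowest array for both. These probes were dim, with the receptor limit at 108.6 on WT vehicle. The median difference of Tfam in CM-MRKO hearts was 0.37. Ndufs4, a complex I subunit, had 4 probes at 0.25, 0.74, 1.33 and 0.96, and its brightest probe was the one nearest 0. Etfa, which passes electrons from fatty acid oxidation to the respiratory chain, had 4 probes at 0.02, 0.60, 2.15 and 0.67, again with the brightest nearest 0. Other genes of this kind past 1.5-fold by the median were Lias, the lipoic acid synthase (0.58), Mrpl37 of the mitochondrial ribosome (0.83) and the mitochondrial chaperonin Hspd1 (0.93, with probes at -0.06 and 1.93). Of the lists, complex I had 1 of 5 members higher with a median of 0.19, complexes II to V 0 of 5 with a median of -0.13, and fatty acid oxidation 1 of 10 with a median of -0.05. Glycolysis and the citric acid cycle had 0 of 6 members past 1.5-fold and a median of 0.04. Over all members 3.13% were higher and 0.737% lower.

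The remaining genes with every probe higher had varied roles. Pik3r1, the regulatory subunit of phosphoinositide 3-kinase, had probes at 0.62 and 1.29 (435.1 to 1005 and 230.9 to 749.4). Tmx4, a thioredoxin-like membrane protein of the endoplasmic reticulum, had probes at 0.74 and 1.12, and Pigp, an enzyme subunit for GPI anchors, at 2.99 and 0.71. Rps3, a protein of the small ribosomal subunit, was at 0.61 and 1.06, although ribosomal protein genes have many processed copies that a probe may also read. Homer1, a scaffold protein, was at 0.92 and 0.62, the calpain gene Capn2 at 0.65 and 0.73, Cdv3 at 0.67 and 1.11, and Nudc, a partner of the dynein motor, at 0.61 and 0.60. The Capn2 probes were dim, at 117.4 and 111.1 on WT vehicle against the limit of 108.6. In all of these 8 genes WT vehicle was the lowest array. Their differences with CM-MRKO vehicle as the control ran from -0.01 for Rps3 to 0.34 for Homer1.

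The remaining higher genes passed 1.5-fold by the median alone. Herpud1, which serves degradation of misfolded proteins, was at 0.63, Saraf, a regulator of store-operated calcium entry, at 0.62, Insig2, which holds back sterol synthesis, at 0.60, and the Golgi stacking protein Gorasp2 at 0.67. The lipoprotein receptor Vldlr was at 0.67 and the endocytic adaptor Dab2 at 0.63, with Dab2 probes at -0.11 and 1.37. The Dab2 probes name different transcripts. The last 6 by the median were Schip1 (1.03), Gapvd1 (0.76), Rdh14 (0.73), Zw10 (0.72), Stard8 (0.62) and Hmgn3 (0.60). Genes past 1.5-fold by the median alone that are on no list were named after their values were seen, here and among the lower genes.

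Both genes with every probe lower were near the threshold. Nsun5 encodes a methyltransferase of ribosomal RNA, and its probes were at -0.70 and -0.65. On the deposited scale they read 158.8 and 151.4 in WT hearts on vehicle and 152.5 and 149.1 on DOC/salt, against 205.6 and 161.8 in CM-MRKO hearts on vehicle and 230.4 and 159.5 on DOC/salt. The WT pair was therefore nearly level before normalization, while the median member probe read 225.9 and 330.5 on the same arrays. Smim41 had probes at -0.71 and -0.63, with deposited values of 265.8 and 135.9 in WT vehicle and 266.6 and 132.2 in WT DOC/salt. The other 6 lower genes were Mrpl49 of the mitochondrial ribosome (-0.66), the DNA polymerase epsilon subunit Pole3 (-0.62), the tubulin gene Tubb2b (-0.61), the F-box gene Fbxl6 (-0.61), the ubiquitin ligase gene Ubox5 (-0.59) and Ap1s1, a subunit of a clathrin adaptor (-0.59). Tubb2b read 722.5 and 367.9 in WT vehicle, 723.6 and 403.7 in WT DOC/salt, and 1062 and 495.4 in CM-MRKO vehicle. None of the 8 lower genes passed 1.5-fold without background correction or on the deposited values.

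No corticosteroid target or sodium pump member passed 1.5-fold, where 3.13% of all members were higher and 0.737% lower, so 0 among so few is near the overall share. The corticosteroid receptor targets had 4 members of 33 listed, 0 of them higher or lower, with a median of -0.16. Tsc22d3, a glucocorticoid-induced leucine zipper gene, had probes in opposite directions, at 0.47 (412.9 to 855.4) and -0.68 (154.6 to 150.0). These probes name different transcripts, so they may not read the same RNA. Per1, a clock gene that corticosteroids induce, had probes at 0.01 and -0.17, Hsd11b1, which regenerates active glucocorticoid, was at -0.27 and the cell cycle inhibitor Cdkn1a at -0.21. The sodium pump list had 5 members and 0 past 1.5-fold. Its lowest was Fxyd1, phospholemman, the regulator of the cardiac sodium pump, at -0.47 with probes at -0.34 and -0.60. Circadian clock genes had 0 of 5 past 1.5-fold and a median of -0.11, with Tef at -0.20 and Nr1d1 at 0.02. Rcan1, a calcineurin target, was the only member of the natriuretic peptide and stretch list, at -0.53. With CM-MRKO vehicle as the control Rcan1 was at -0.51, and its deposited median rose from 655.45 to 726.8 on the WT arrays. Nppa, Nppb, Acta1, Sgk1, Fkbp5 and Igtp had fewer than 2 detected probes and were not members, and no named probe carried the symbol Nr3c2, the receptor gene itself.

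**Figure D4:**
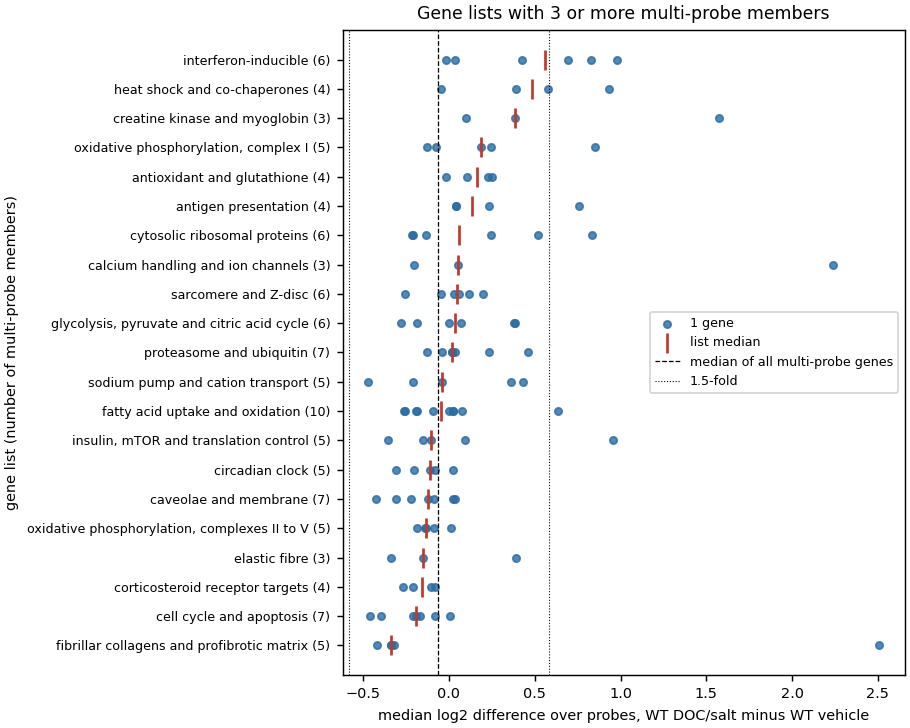
Median log2 difference over probes between WT DOC/salt and WT vehicle for each member (blue points) of the 21 gene lists with 3 or more multi-probe members, with list medians (red ticks) and the number of members in brackets. The interferon-inducible list has the highest median, 0.56, and the matrix list the lowest, -0.34, the latter with Dcn at 2.51.

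The other lists had at most 1 member past 1.5-fold. Over all members 3.13% were higher and 0.737% lower, with a median of -0.06. With so few members in each list, a count of 0 or 1 says little about the list. Heat shock genes had 1 of 4 members higher and a median of 0.48, with the mitochondrial Hsp70 gene Hspa9 at 0.58 (probes at 1.01 and 0.14) and the chaperonin subunit gene Cct3 at 0.39 (0.37 and 0.41). With the brightest probe alone the median was 0.15. Creatine kinase and myoglobin genes had 1 of 3 higher and a median of 0.39, the 1 being Mb. Antioxidant genes (4 members), proteasome genes (7), sarcomere genes (6), caveolar genes (7), cell cycle genes (7) and elastic fibre genes (3) had 0 past 1.5-fold, with medians of 0.17, 0.02, 0.04, -0.12, -0.19 and -0.15. Ribosomal protein genes and insulin and mTOR genes had 1 member higher each (Rps3 of 6 and Pik3r1 of 5), with medians of 0.06 and -0.10.

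Probes of the same gene diverged more in this comparison than in the CM-MRKO response, which uses the other 2 arrays. The spread between the 2 brightest probes of a gene, as the SD of a single probe's log2 difference, was 0.33 in WT and 0.17 in CM-MRKO hearts over the same 1086 genes. The range over probes exceeded 1 on the log2 scale in 53 members (4.88%) in WT and in 1 in CM-MRKO hearts. In 34 of the 53, the highest probe was at least 1.5-fold dimmer on WT vehicle than on each of the other 3 arrays. The widest ranges were those of Atp2a2 (4.30), Hnrnpm (3.18), Lamp2 (2.89), Csrp3 (2.29), Pigp (2.28), Mb (2.22), Etfa (2.12) and Smim8 (2.06). Hnrnpm, a splicing factor, had probes at -0.16, 0.58 and 3.02, the last going from 134.1 to 999.2, with 905.4 and 893.8 on the CM-MRKO arrays. Lamp2, a lysosomal membrane protein, had a median of -0.11, since 2 of its 3 detected probes were at -0.30 and -0.11 while the third was at 2.59. Another probe, below the limit on WT vehicle, was at 2.48 (107.0 to 421.9). The detected high probe read 186.2 and 1268 on the WT arrays and 1117 and 1260 on the CM-MRKO arrays. The other high probe read 417.0 and 434.2 on the CM-MRKO arrays, so WT vehicle was the only low array for both. The 2 high probes name 1 transcript accession and the 2 low probes another. The part of transcript choice was not tested. Of the 34 higher genes 11 had a range over 1, and of the 8 lower genes 0. The probes of a gene named more than 1 transcript accession in 14 of the 53 wide members and in 100 of all 1086.

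**Figure D5:**
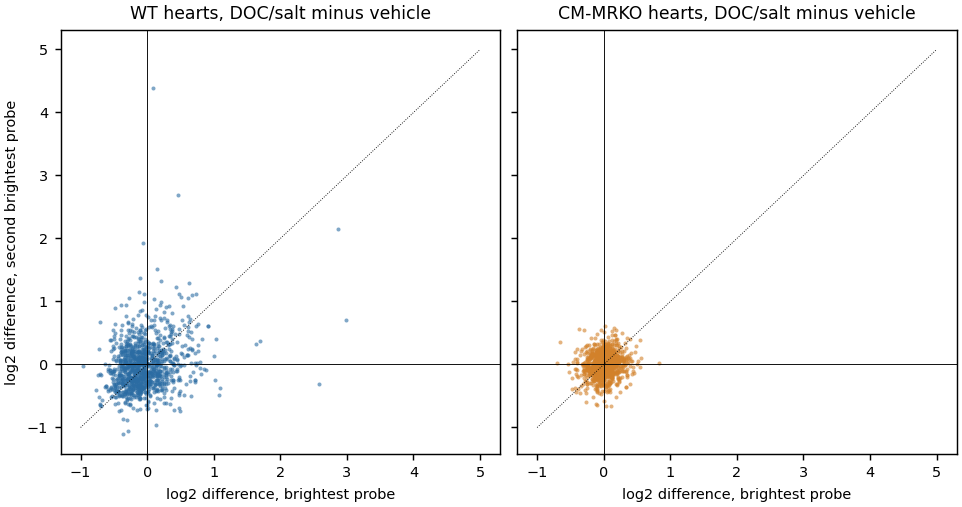
Log2 difference between DOC/salt and vehicle for the brightest (horizontal axis) and second brightest (vertical axis) detected probe of each of the 1086 genes, in WT hearts (left, blue) and CM-MRKO hearts (right, orange), with the dotted line marking equal values. The spread of a single probe is 0.33 in WT and 0.17 in CM-MRKO hearts.

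In CM-MRKO hearts, whose arrays were not used to choose the members, DOC/salt moved 0 of the 1086 genes 1.5-fold higher and 1 lower (0.0921%). The lower gene, named after its values were seen, was G3bp2, a stress granule protein, at -0.65 with 3 probes between -0.70 and 0.03, against 0.15 in WT hearts. The member medians had an SD of 0.13, compared with 0.29 in WT. None of the 42 genes past 1.5-fold in WT hearts was past it in CM-MRKO hearts, where those 34 higher genes ranged from -0.38 for Dcn to 0.47 for Napsa. Whether the 2 responses differ could not be tested with 1 pool in each group.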

How the data were processed

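Whole-heart RNA was read on 4 single-channel Illumina bead arrays, 1 for each group. The authors deposited linear probe intensities, whose medians differ between arrays. The submitters' processing notes name Partek, with no version, and what it did is not given in the sources used here. Another table has 4 columns that could not be tied to samples and was left out. The treatment protocol text names vehicle for every sample, so groups were taken from titles.

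Of 25697 probes, 23978 had 1 gene symbol, 0 had several and 1719 were unnamed here. By gene identifier 23962 matched RefSeq's table for GRCm38.p6, which changed 0 symbols. Intensities were corrected with normexp (offset 16), quantile normalized over the 4 arrays and converted to log2 in limma 3.58.1 under R 4.3.3. Detection used the 99th percentile of 1339 receptor probes, at deposited intensities of 108.6 and 113.5 on the WT arrays. A gene was called past 1.5-fold by its median log2 difference. The depth of an array has no counts, and the number of arrays, 4, limits the precision.

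Genes were named by a rule: up to 15 in each direction with every probe past 1.5-fold, up to 6 members of a list by size of difference, the 8 with the widest probe range and a fixed set of corticosteroid, natriuretic, matrix, interferon and muscle genes. The members and lists were chosen with earlier results of these data known. The summary was tested on simulated data with independent noise in every probe, smaller than the spread between probes in WT hearts. No probe was lost on a single array there, so that test does not cover the lost probes of the WT vehicle array. Of 13 alternatives planned and 2 added, all were run.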

Additional observations from a re-analysis of the deposited data

Results flagged for a closer look

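For 5 of the 42 genes the responses of the 2 genotypes had opposite signs, each larger than the spread between probes of its own pair of arrays (0.33 in WT and 0.17 in CM-MRKO hearts). The 42 genes were picked for their WT difference, and the share of all 1086 members with such opposite signs is not given here. The difference between genotypes was not tested, since each group is 1 pool. Dcn was at 2.51 on the log2 scale in WT and -0.38 in CM-MRKO hearts, where its second probe, at -0.65, moved more than its first, at -0.11. Gapvd1 was at 0.76 and -0.25, Stard8 at 0.62 and -0.24, and Nudc at 0.61 and -0.19. The CM-MRKO values of Gapvd1 and Nudc came from uneven probes, at -0.43 and -0.07 for Gapvd1 and -0.04 and -0.33 for Nudc. Ap1s1 was at -0.59 in WT and 0.23 in CM-MRKO hearts. In the 4 genes that were higher in WT hearts the WT vehicle array was the lowest of the 4, and in Ap1s1 it was the highest.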

How the results depend on the processing

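The 34 higher and 8 lower genes were recounted under each alternative, in the order higher, lower. They were 17 and 0 without background correction, 287 and 0 on the deposited values, 14 and 1 for probes at 200 or more, 102 and 22 with no detection limit, 13 and 2 by the smallest probe difference, 54 and 20 by the brightest probe, 5 and 1 for genes with 3 or more probes, and 5 and 0 at 2-fold. Lower genes numbered 17 with scaling to member probes, 3 with loess and 0 on centred deposited values. With CM-MRKO vehicle as the control 3 were higher and 1 lower. Genes with every probe past 1.5-fold in 1 direction, 15 at first, numbered 5, 112, 3, 27, 0 and 1 without background correction, on the deposited values, for probes at 200 or more, with no detection limit, for 3 or more probes and at 2-fold, and 2 with CM-MRKO vehicle as the control. By direction they were 13 higher and 2 lower at first, 6 and 6 with scaling to member probes and 17 and 0 with loess. The deposited values carry a shift of 0.43 in the median over all members. Of the 42 genes, 7 stayed past 1.5-fold under every planned normalization, filter and summary that gave them a value: B2m, Cdv3, Dcn, Pigp, Pik3r1, Rps3 and Tmx4. All of those settings use the WT vehicle array. With CM-MRKO vehicle as the control these 7 were all inside 1.5-fold, from -0.05 for Dcn to 0.26 for Tmx4.

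The sign turned on the deposited values for Ap1s1 (0.0385), Fbxl6 (0.0771), Pole3 (0.0193), Tubb2b (0.0681) and Ubox5 (0.0514). By the brightest or the smallest probe it turned for Dab2 (-0.11) and Hspd1 (-0.0643), and for Dab2 with no detection limit (-0.11). With CM-MRKO vehicle as the control it turned for Ap1s1 (0.0868), Dab2 (-0.14), Dcn (-0.0454), Gorasp2 (-0.0003), Hmgn3 (-0.19), Mrpl37 (-0.10), Mrpl49 (0.0216) and Rps3 (-0.0119). The causes were not tested, apart from the fewer genes or probes that the filters leave. Of 268 list medians recomputed, 244 moved by less than the spread between probes. That spread is for a single probe, 0.33 in WT hearts, and is larger than most list medians in size. A list median could therefore change sign within it, so the count does not show that the medians are stable. The interferon list fell to 0.14 for probes at 200 or more. No paired analysis was possible because each group holds 1 pool and the labels give no replicate numbers.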
